A study of Rattus norvegicus with 47 samples.

Results

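The genes of the proteasome were followed across the striatum and the cerebellum of rats that had inhaled PCB52 or had been sham-exposed. PCB52 is a polychlorinated biphenyl that occurs in air, and sham is the submitters' label for the control rats. The members are the rat genes whose symbols begin with Psma, Psmb, Psmc, Psmd or Psme followed by a number, without the immunoproteasome genes Psmb8, Psmb9 and Psmb10. By this rule 42 of the 15319 genes in the count tables were members. The rule itself uses symbols only, although the gene family was chosen with earlier results of these data known. All rats were Sprague-Dawley animals that arrived at 28 days of age, trained in the nose-only apparatus, and were assigned to a group at 42 days in females and 39 days in males. Exposure lasted 4 h a day for 28 days. RNA was sequenced in bulk from tissue punches. Striatum gave 6 libraries of PCB52 females, 6 of sham females, 6 of PCB52 males and 4 of sham males. Cerebellum gave 6 libraries of PCB52 females, 6 of sham females, 5 of PCB52 males and 5 of sham males.

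The proteasome is the protease that degrades proteins tagged with ubiquitin. Its barrel-shaped 20S core has outer rings of alpha subunits, which gate the entrance, and inner rings of beta subunits, some of which cut the substrate. The 19S cap on each end holds a ring of ATPases that unfolds the substrate and a set of non-ATPase subunits that bind ubiquitin and remove it. Other activators can dock on the core in place of the 19S cap, and dedicated chaperones help to assemble the cap. In neurons the proteasome is known for the turnover of synaptic proteins. The 42 members comprised 7 alpha subunits, 6 beta subunits, 6 ATPases of the 19S cap, 11 non-ATPase subunits, 3 assembly chaperones (Psmd5, Psmd9 and Psmd10) and 4 activators (Psme1 to Psme4). They also held 2 core subunits restricted to other tissues (Psma8 and Psmb11), a Psmb6-like copy (Psmb6l1) and 2 genes that the symbols catch but that encode no subunit. These are Psmc3ip, a factor of meiotic recombination, and Psme3ip1, which encodes a protein that binds Psme3. Psmb6, the caspase-like catalytic subunit, was not analysed here.

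Promoter windows of 300 bases, from 250 before to 50 after the annotated start, were available for 37 of the 42 members (RefSeq, assembly GRCr8). The windows of the member with the lowest striatal level relative to cerebellum (Psmd9), of the member with the smallest p in that comparison (Psmd11), and of the paired subunits of one activator, which had differences of opposite sign (Psme1 and Psme2), are shown. Psmd9 lies at chr12:39018215-39018514 (minus strand), Psmd11 at chr10:65932093-65932392 (plus strand), Psme1 at chr15:33038721-33039020 (plus strand) and Psme2 at chr15:33052702-33053001 (minus strand). Capitals mark matches on either strand to 4 motifs, the antioxidant response element core TGACNNNGC, the box CCAAT bound by NF-Y, the ETS factor core CCGGAAG, and the core of the interferon-stimulated response element.
Psmd9: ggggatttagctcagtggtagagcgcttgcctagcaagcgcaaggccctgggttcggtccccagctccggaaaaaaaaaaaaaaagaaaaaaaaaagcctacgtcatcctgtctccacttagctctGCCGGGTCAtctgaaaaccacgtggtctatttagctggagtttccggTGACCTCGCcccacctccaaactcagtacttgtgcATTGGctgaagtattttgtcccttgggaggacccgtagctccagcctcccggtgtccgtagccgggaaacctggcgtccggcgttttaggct
Psmd11: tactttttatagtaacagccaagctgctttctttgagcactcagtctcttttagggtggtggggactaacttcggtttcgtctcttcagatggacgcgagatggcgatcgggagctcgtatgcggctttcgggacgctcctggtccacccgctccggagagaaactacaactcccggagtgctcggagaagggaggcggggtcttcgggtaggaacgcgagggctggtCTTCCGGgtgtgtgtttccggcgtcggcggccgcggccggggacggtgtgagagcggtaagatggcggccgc
Psme1: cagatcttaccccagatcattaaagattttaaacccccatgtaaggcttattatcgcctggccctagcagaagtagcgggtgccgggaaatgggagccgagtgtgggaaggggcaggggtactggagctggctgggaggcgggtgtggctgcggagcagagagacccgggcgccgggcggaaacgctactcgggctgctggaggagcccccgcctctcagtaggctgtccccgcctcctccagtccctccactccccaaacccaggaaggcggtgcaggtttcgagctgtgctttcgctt
Psme2: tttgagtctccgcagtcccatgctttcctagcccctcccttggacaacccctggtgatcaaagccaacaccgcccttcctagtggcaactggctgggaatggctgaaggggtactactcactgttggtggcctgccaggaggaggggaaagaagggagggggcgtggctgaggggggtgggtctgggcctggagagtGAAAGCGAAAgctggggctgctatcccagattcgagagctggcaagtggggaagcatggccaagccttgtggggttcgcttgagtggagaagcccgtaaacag
The antioxidant response element core occurred in 7 of 37 member windows (18.9%), against 12.1% of 33469 rat promoter windows of the same length and 14.2% of the 12740 windows of genes in the count tables. The CCAAT box occurred in 19 member windows (51.4%), against 37.5% of all windows and 37.3% of those of genes in the tables. The ETS core occurred in 15 member windows (40.5%), against 8.75% of all windows and 14.4% of those of genes in the tables. The interferon-stimulated element core occurred in 4 member windows (10.8%), against 3.92% of all windows and 2.998% of those of genes in the tables. Overlapping matches to different motifs occurred in 1 member window. Psmd9 held the antioxidant element core at 2 places and the CCAAT box at 1, Psmd11 held the ETS core once, Psme2 held the interferon-stimulated element core once, and none of the 4 motifs occurred in the window of Psme1. A match is a stretch of letters and not a measured binding site.

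Total counts ran from 5684508 to 8914523 in striatum and from 6524400 to 15865054 in cerebellum, and all values below are CPM, counts scaled by TMM-adjusted library size to a common total, or log2 differences. The region labels fitted their markers in sham animals: the mean log2 CPM of 12 striatal projection neuron genes was 9.51 to 9.92 in striatum and 2.97 to 3.45 in cerebellum, and that of 13 cerebellar neuron genes was 3.03 to 3.72 in striatum and 9.24 to 9.48 in cerebellum. In PCB52 animals the striatal genes ranged wider, from 8.73 to 9.93 in striatum, and were 2.89 to 3.85 in cerebellum. PCB52 females 24 (8.73) and 14 (8.89) had the lowest striatal values, below every sham library of striatum. Of the 44 libraries, 5 held transcripts of both sexes, all of them sham (striatum male 3, and cerebellum females 8 and 10 and males 9 and 11), and 3 held genes of another tissue by the lists searched. The libraries of another tissue were striatum PCB52 female 20 (choroid plexus list at 7.74, region median 0.998), striatum sham female 12 (olfactory bulb list at 4.56, region median 0.655) and cerebellum sham male 1 (choroid plexus list at 5.18, region median 0.936). The cutoff was 2 log2 units above the region median for choroid plexus, olfactory bulb or, in striatum, cortical excitatory neuron genes. The cortical list was highest in striatum PCB52 female 14 (5.75) and male 19 (5.71), both under the cutoff. In striatum PCB52 female 22 the cerebellar neuron list stood at 6.06, against a region median of 3.30. This passes the same cutoff, but the cerebellar list was not among those searched. That library is therefore not 1 of the 3 and stayed in the fits without those 3. Numbers in library names are animal numbers. By the labels each library is from 1 animal, and animals are the replicates. Whether the 5 libraries with transcripts of both sexes hold RNA of more than 1 animal was not tested.

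Psma8, the alpha subunit of the testis, had at most 2 counts in any striatal library and at most 1 in any cerebellar library. Psmb11, the beta subunit of the thymus, had at most 9 counts in striatum and 8 in cerebellum. Both failed the filter on low counts in either region. Psmb6l1 had 2 to 11 counts a library in striatum, where it failed the filter, and 4 to 24 in cerebellum, where it passed. This left 39 members tested in striatum, 40 in cerebellum and 40 in the comparison of the regions. Annotated pseudogene copies exist for 17 members, so reads of these could be shared with a near-identical copy.

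Striatum held less messenger RNA for most proteasome genes than cerebellum, relative to each library's total. Among sham rats 25 of the 40 members tested were lower in striatum and 1, Psme1, was higher (edgeR quasi-likelihood F-test, adjusted p at or under 0.05). The difference was moderate in size, with a median over the members of −0.36 on the log2 scale, against −0.03 over all genes tested, and 38 of the 40 lay below 0, against 52% of all genes. Of all 12446 genes tested, 69.8% were called in either direction, so the 65.0% of members called is close to the background. By direction, 62.5% of members were lower, against a background of 35.5%, and 2.5% were higher, against 34.3%. Without Psmc3ip and Psme3ip1, which encode no subunit, 63.2% of 38 were lower and 2.63% higher. Psmb6l1, not called but among those below 0, passed the filter through cerebellum and not in striatum, so its sign adds no support. In bulk tissue fewer cells of a type and less RNA per cell cannot be told apart.

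**Figure D1:**
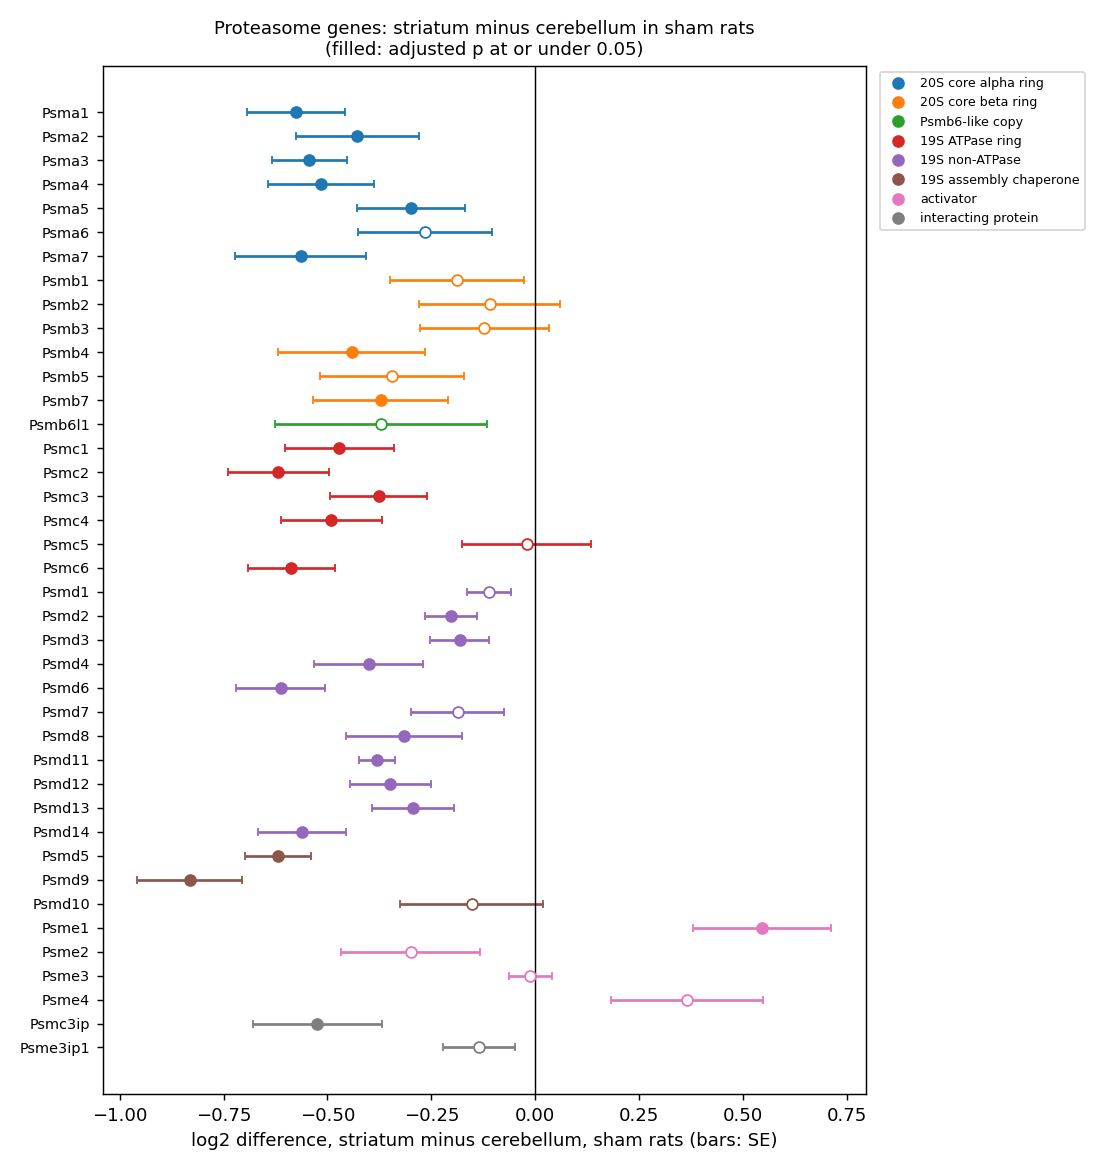
The log2 difference of striatum minus cerebellum in sham rats is plotted for each of 40 proteasome genes, grouped and coloured by role, with bars for the standard error and filled points for an adjusted p at or under 0.05. Of the 40 points 38 lie left of 0, and of the 2 on the right only Psme1 is filled.

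In the core, 6 of 7 alpha subunits were lower in striatum. On the log2 scale Psma1 differed by −0.58 ± 0.12 (SE), Psma7 by −0.56 ± 0.16 and Psma3 by −0.54 ± 0.09. Psma6 did not pass (−0.27 ± 0.16, edgeR adjusted p = 0.139). Among the alternatives it passed only with limma voom (adjusted p = 0.00901) and without the libraries with another tissue's genes (edgeR adjusted p = 0.0375). Psma3, which helps to close the gate of the core, had 14.5 to 25.7 CPM in striatum (median 17.7, n = 10 sham rats), against 23.2 to 32.9 CPM in cerebellum (median 26.1, n = 11). The groups overlapped only through the highest striatal library, sham female 8. Of the 6 beta subunits only Psmb4 and Psmb7 passed, and both calls depended on the processing. Psmb4, which encodes a structural subunit, differed by −0.44 ± 0.18 (edgeR adjusted p = 0.0258) and lost the call without the libraries holding transcripts of both sexes (0.0522). Psmb7 differed by −0.37 ± 0.16 (edgeR adjusted p = 0.0398), and its adjusted p was 0.0595 with DESeq2. Both calls held with limma voom and without the libraries with another tissue's genes. Psmb5 did not pass in the main test but did in those 2 alternatives (limma voom adjusted p = 0.00847, edgeR adjusted p = 0.0175). It also passed in 3 of 21 fits leaving out 1 library. Psmb1, Psmb2 and Psmb3 had differences of −0.19, −0.11 and −0.12.

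In the 19S cap, 5 of 6 ATPases were lower in striatum, with Psmc2 at −0.62 ± 0.12, Psmc6 at −0.59 ± 0.10, Psmc4 at −0.49 ± 0.12, Psmc1 at −0.47 ± 0.13 and Psmc3 at −0.38 ± 0.12. Psmc5 alone did not pass, at −0.02 ± 0.16 (edgeR adjusted p = 0.915). Its levels were 197 ± 35.5 CPM in striatum (SD, n = 10) and 199 ± 43.1 CPM in cerebellum (SD, n = 11). Of the 11 non-ATPase subunits 9 were lower, led by Psmd6 at −0.61 ± 0.11 and by Psmd14, the deubiquitinase of the cap, at −0.56 ± 0.11. Psmd4, a ubiquitin receptor, differed by −0.40 ± 0.13, and Psmd2, a scaffold of the base, by −0.20 ± 0.06. Psmd1, the other scaffold of the base (−0.11 ± 0.05, edgeR adjusted p = 0.0615), and Psmd7 (−0.19 ± 0.11, edgeR adjusted p = 0.131) did not pass. With limma voom both did (adjusted p = 0.0223 and 0.0161). Without the libraries with another tissue's genes Psmd7 passed (edgeR adjusted p = 0.0340) and Psmd1 did not (0.0705).

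Psmd11, a scaffold subunit of the lid, had the smallest p of all members. It had 87.5 to 108 CPM in striatum (median 95.7, n = 10 sham rats), against 117 to 133 CPM in cerebellum (median 124, n = 11). The groups did not overlap, and its log2 difference was −0.38 ± 0.04 (edgeR adjusted p = 2.97e-10). Its within-group spread was among the smallest of the members.

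Of the assembly chaperones of the cap, Psmd9 and Psmd5 had the lowest log2 differences of all members. Psmd9 had 21.5 to 36.8 CPM in striatum (median 27.0, n = 10 sham rats), against 37.0 to 59.5 CPM in cerebellum (median 51.4, n = 11). Its highest striatal library, sham female 12, lay just below its lowest cerebellar library, sham male 1, both of which held genes of another tissue. The log2 difference was −0.83 ± 0.13 (edgeR adjusted p = 2.58e-07). Psmd5 had 28.3 to 45.9 CPM in striatum (median 38.6), against 47.7 to 64.9 CPM in cerebellum (median 55.8), again without overlap, and differed by −0.62 ± 0.08 (edgeR adjusted p = 6.68e-09). Psmd10, also known as gankyrin, had few counts and did not pass (−0.15 ± 0.17, edgeR adjusted p = 0.435). Psmd9, Psmd5 and Psmd11 were the 3 members without overlap between the regions, all lower in striatum. Over all genes tested, 14.7% were lower and 15.9% higher in striatum without overlap. Among the interacting proteins, Psmc3ip was lower in striatum (−0.52 ± 0.16, edgeR adjusted p = 0.00298) and Psme3ip1 did not pass (−0.14 ± 0.09).

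The 4 activators had differences of both signs between the regions. Psme1 and Psme2 encode the alpha and beta subunits of the activator PA28, which is known to be induced by interferon, and Psme3 and Psme4 encode activators found mainly in the nucleus. Psme1 had 29.2 to 67.4 CPM in striatum (median 38.2, n = 10 sham rats), against 19.7 to 40.8 CPM in cerebellum (median 28.5, n = 11). The groups overlapped, and Psme1 was higher in striatum by 0.55 ± 0.17 on the log2 scale (edgeR adjusted p = 0.00363). Psme2 had 21.1 to 43.5 CPM in striatum (median 28.3), against 23.9 to 46.2 CPM in cerebellum (median 34.2), with a difference in the other direction that did not pass (−0.30 ± 0.17, edgeR adjusted p = 0.108). It passed with limma voom (adjusted p = 0.0177), without the libraries with another tissue's genes (edgeR adjusted p = 0.0338) and in 1 of 21 fits leaving out 1 library. Whether Psme1 and Psme2 differed from each other in this was not tested. Psme3 averaged 93.6 ± 3.29 CPM in striatum (SD, n = 10) and 93.8 ± 4.65 CPM in cerebellum (SD, n = 11), with a difference of −0.01 ± 0.05. Psme4 averaged 101 ± 25.1 CPM in striatum and 77.8 ± 21.8 CPM in cerebellum. Its difference of 0.37 ± 0.18 did not pass (edgeR adjusted p = 0.0725), but it did with the animal as a block (0.40, edgeR adjusted p = 0.0356). It also passed with limma voom (adjusted p = 0.0120), without the libraries with another tissue's genes (edgeR adjusted p = 0.0140) and in 4 of 21 fits leaving out 1 library. With DESeq2 (adjusted p = 0.0538) and without the libraries holding transcripts of both sexes (edgeR adjusted p = 0.146) it did not pass.

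The same contrast can be read within animals. In the 10 sham rats with both regions, 21 of 40 members were lower in striatum in every animal, against 26.7% of all genes tested, and in the 11 such PCB52 rats 23 were, against 22.4%. In all 21 animals 19 members were lower, against 19.2% of all genes. Psmd11 was lower in 10 of 10 sham rats, with a mean within-animal difference of −0.37 ± 0.07 (SD), and Psmd9 in 10 of 10, with −0.81 ± 0.19. Psme1 and Psme4 were each lower in 1 of 10. In PCB52 rats Psme1 was lower in 5 of 11, with a mean difference of 0.18, against 0.53 in sham rats, and Psme4 was lower in 1 of 11. The libraries with genes of another tissue and those with transcripts of both sexes bore on the count: 31 members were called without the 3 libraries of one kind, against 70.2% of all genes, and 21 without the 5 of the other, against 63.6%. Of the 26 calls, 21 held under every alternative tried, 20 of them lower and Psme1 higher. The calls of Psmd3, Psmd8, Psma5, Psmb4 and Psmb7 did not. With the animal as a block Psma5 was not called (−0.28, edgeR adjusted p = 0.0687), against −0.30 ± 0.13 (edgeR adjusted p = 0.0386) without it.

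Genes that act with the proteasome were mostly lower in striatum too. Of 28 listed receptors, deubiquitinases, shuttles and assembly factors, 23 were in the tables. Of these 14 (60.9%) were called lower and 1 (4.35%) higher in striatum, against 35.5% and 34.3% of all genes tested. Zfand5, an activator induced by stress, differed by −0.73 ± 0.07, Ngly1, which deglycosylates the transcription factor Nfe2l1, by −0.47 ± 0.05, Uchl5, a deubiquitinase of the cap, by −0.97 ± 0.11, and Ubqln1, a ubiquitin shuttle, by −0.46 ± 0.05. Ubqln4, a related shuttle, was higher in striatum by 0.58 ± 0.05 (edgeR adjusted p at or under 0.05 for each). The immunoproteasome genes stood on the other side, as Psmb9 was 1.20 ± 0.26 and Psmb8 0.87 ± 0.32 higher in striatum (edgeR adjusted p = 9.70e-05 and 0.0159), and Psmb10 did not pass (0.34 ± 0.17, edgeR adjusted p = 0.0629). Of 74 cytosolic ribosomal protein genes, 10 (13.5%) were called higher and 6 (8.11%) lower in striatum, with a median of 0.00. The shares over all genes tested were 34.3% and 35.5%.

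**Figure D2:**
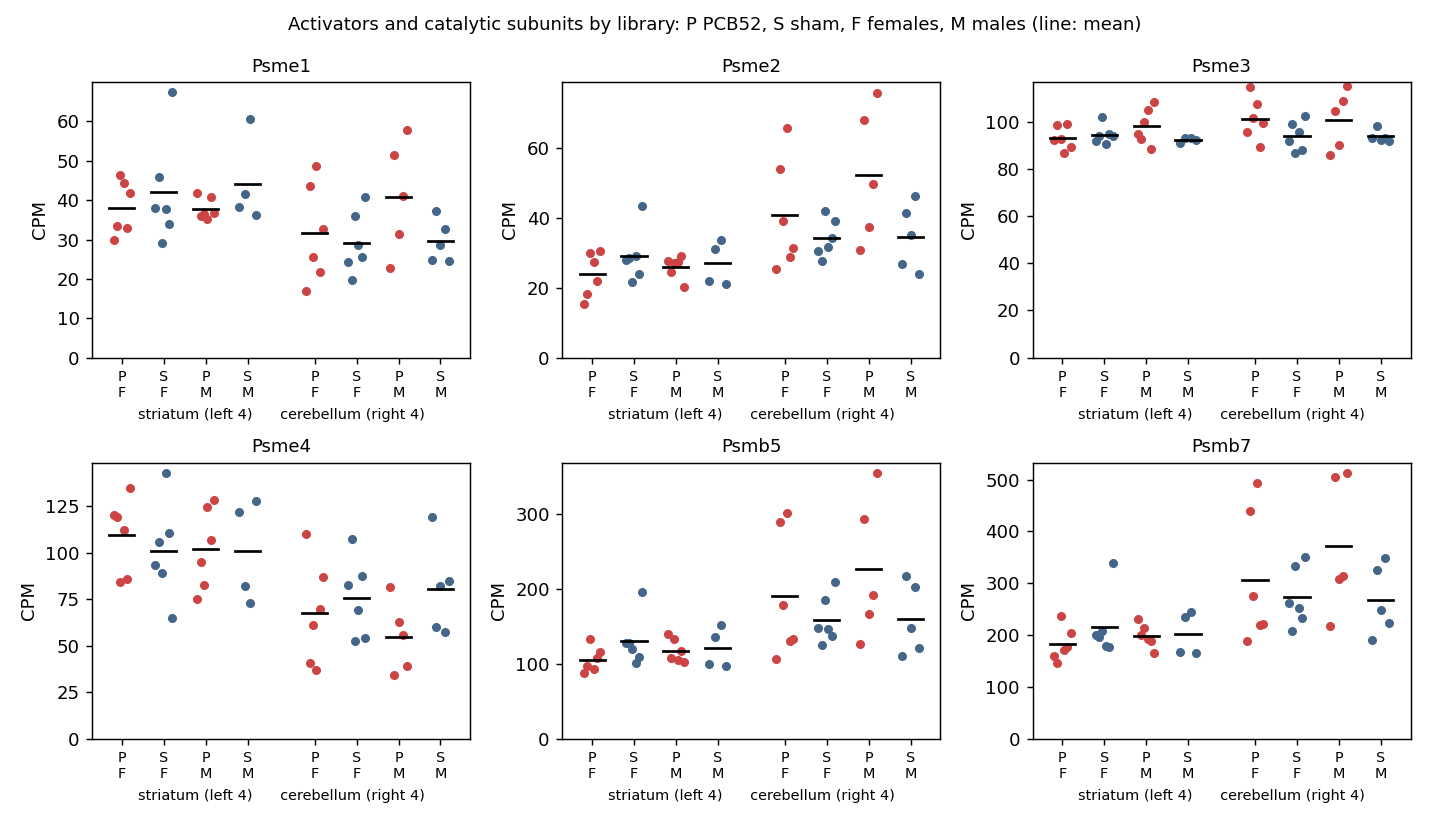
CPM of the activators Psme1, Psme2, Psme3 and Psme4 and of the catalytic subunits Psmb5 and Psmb7 is plotted per library for striatum (left 4 groups) and cerebellum (right 4 groups), with PCB52 (red, P) beside sham (blue, S) in females (F) and males (M) and lines for group means. Psme3 stays between 85.9 and 115 CPM in every library, while Psmb5 spans 107 to 354 CPM within cerebellum.

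The catalytic subunits overlapped between PCB52 and sham in every sex and region. Psmb5, the chymotrypsin-like subunit, averaged 105 ± 16.9 CPM in PCB52 females and 130 ± 33.6 CPM in sham females of striatum (SD, n = 6 each). In striatal males it averaged 117 ± 15.5 CPM with PCB52 (n = 6) and 121 ± 27.0 CPM in sham (n = 4). In cerebellum it averaged 190 ± 84.6 CPM in PCB52 females and 158 ± 31.9 CPM in sham females (n = 6 each), and 226 ± 94.5 CPM in PCB52 males and 159 ± 47.6 CPM in sham males (n = 5 each). The PCB52 groups of cerebellum had the largest standard deviations. Psmb7, the trypsin-like subunit, averaged 182 ± 33.1 CPM in PCB52 females, 216 ± 61.8 CPM in sham females, 198 ± 22.7 CPM in PCB52 males and 202 ± 42.3 CPM in sham males of striatum. In cerebellum it averaged 306 ± 128 CPM in PCB52 females, 273 ± 56.2 CPM in sham females, 371 ± 132 CPM in PCB52 males and 267 ± 68.1 CPM in sham males. Between the regions in sham rats Psmb5 did not pass in the main test (−0.34 ± 0.17, edgeR adjusted p = 0.0740).

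Members differed in how steady they were. The standard deviation within groups, on the log2 scale, had a median over 40 members of 0.21 in striatum and 0.36 in cerebellum. Psmd11 (0.08 in either region), Psme3 (0.08 in striatum and 0.12 in cerebellum) and Psmd1 (0.11 in either region) varied least. The 6 beta subunits had 0.42 to 0.51 in cerebellum and 0.23 to 0.28 in striatum. In striatum the sparsely counted Psmb6l1 (0.39) and Psmd10 (0.32) and the activators Psme4 (0.34), Psme2 (0.33) and Psme1 (0.30) varied more than any beta subunit. Psme4 had 0.50 in cerebellum. Across the 22 cerebellar libraries the highest level of Psmb4 was 3.59 times the lowest, against 1.19 times for Psmd11.

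**Figure D3:**
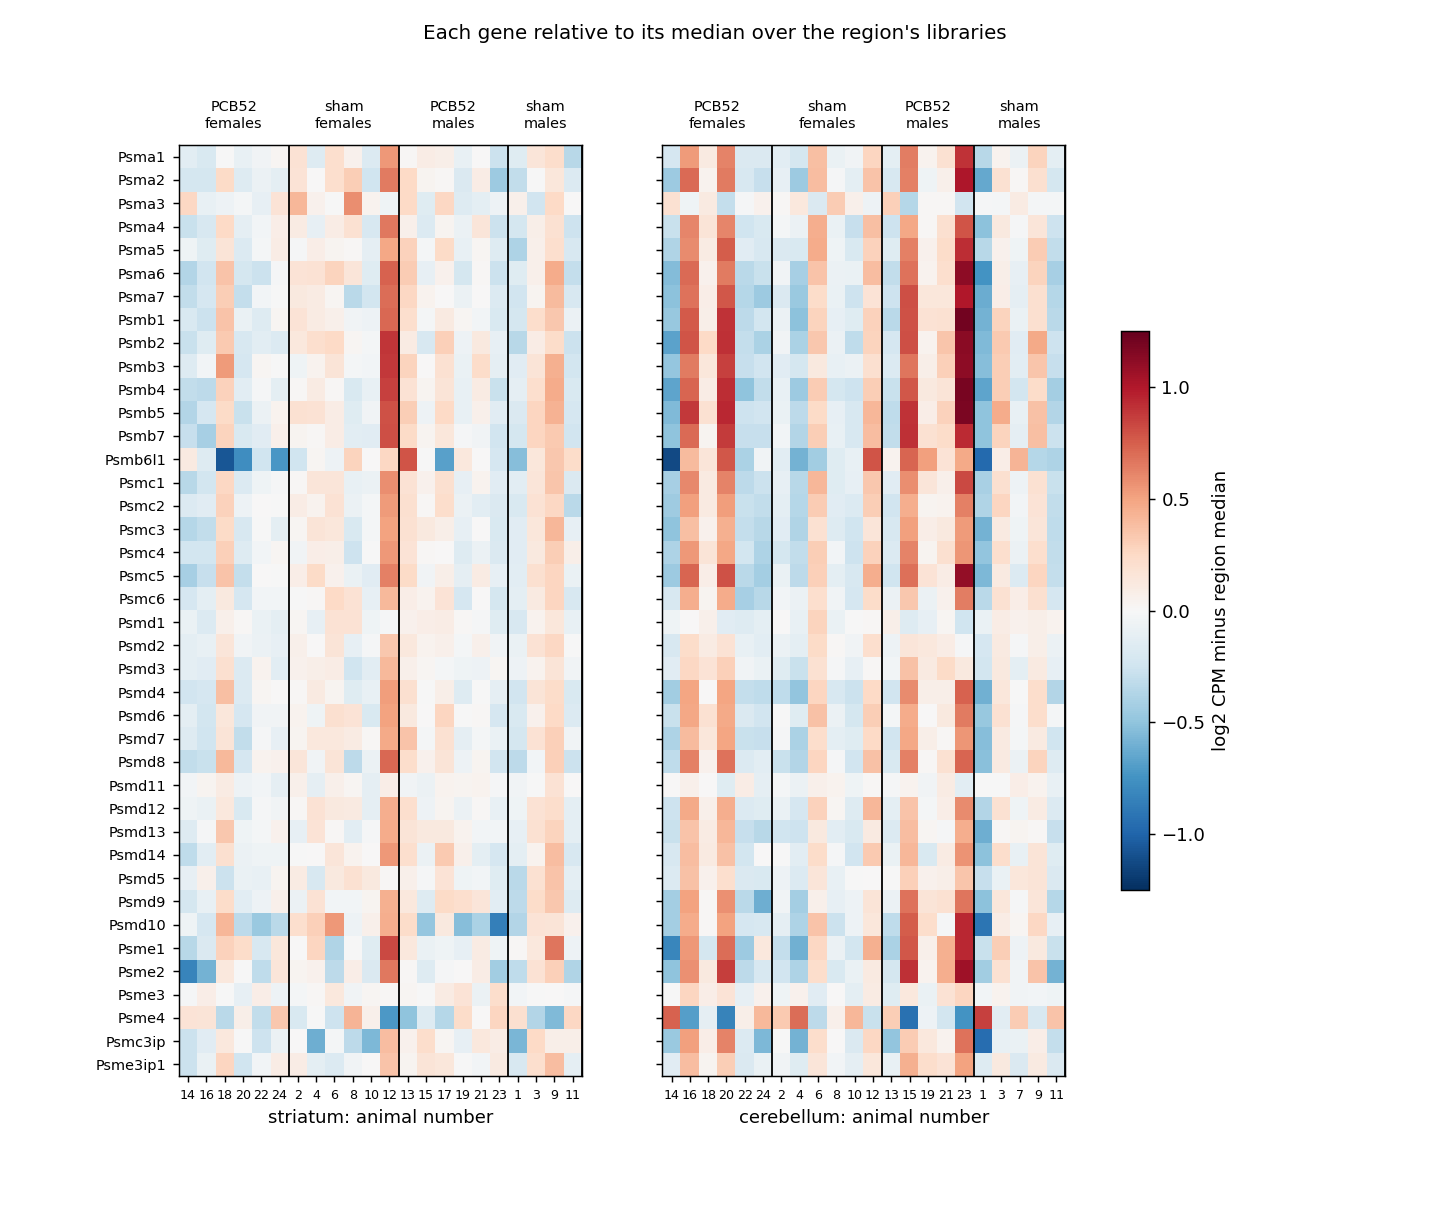
Each cell gives a gene's level in 1 library minus its median over the libraries of that region, on a log2 scale of CPM plus 0.25, with genes in rows by role and libraries in columns by animal number and group. Striatum sham female 12 and cerebellum PCB52 libraries 15, 16, 20 and 23 are red in most rows, while Psme4 is blue in them and Psmd11 and Psme3 stay pale.

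A few libraries stood high or low for many members together. The mean log2 CPM of the 40 members in striatum sham female 12 was 6.54, and it was the highest striatal library for 31 of the 40. The lowest striatal mean, 5.86, was that of PCB52 female 14, which held the lowest level of 12 members. In cerebellum, PCB52 male 23 (7.12) was the highest for 30 of 40, and PCB52 female 20, male 15 and female 16 followed at 6.97, 6.96 and 6.94. Cerebellum sham male 1 was lowest at 6.05 and held the lowest level of 21 members. The ribosomal protein list had its highest mean in the same 4 cerebellar libraries (9.81 in male 23, 9.40 in female 20, 9.26 in male 15 and 9.21 in female 16) and, in striatum, in sham female 12. The part of these list-wide shifts in the results was not tested. Psme4 ran the other way, with its lowest striatal level in sham female 12 (64.6 CPM) and 34.3, 36.7, 39.0 and 40.7 CPM in cerebellum PCB52 male 15, female 20, male 23 and female 16. Its highest cerebellar level was in sham male 1 (119 CPM). All members together took 0.328% to 0.507% of the counts of a striatal library and 0.387% to 0.725% of those of a cerebellar one.

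**Figure D4:**
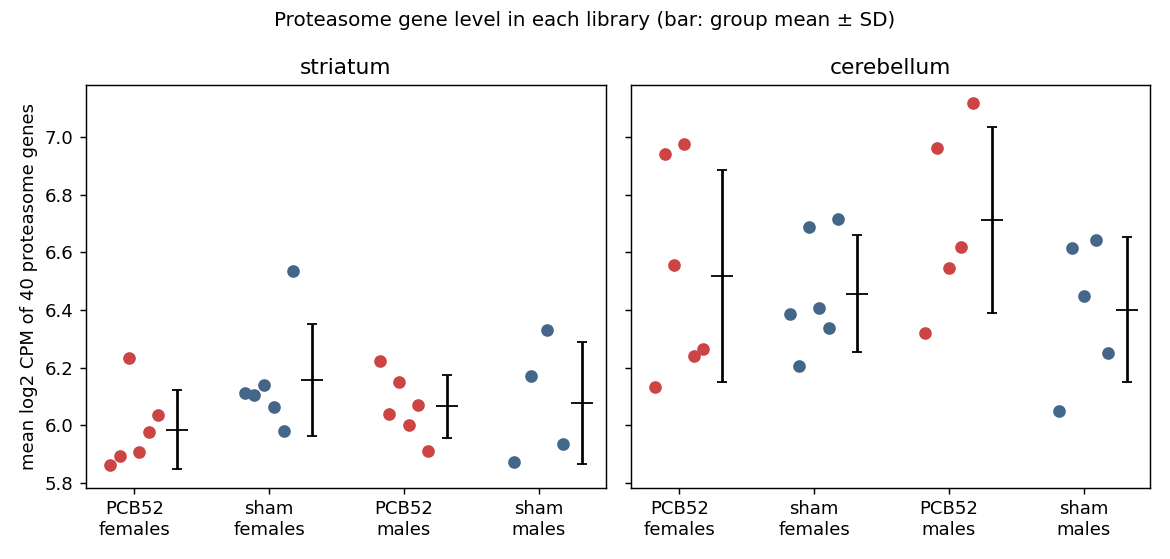
The mean log2 CPM of 40 proteasome genes is plotted for each library (points) with the group mean ± SD (bars), in striatum (left) and cerebellum (right), PCB52 in red and sham in blue. The striatal groups lie between 5.86 and 6.54, and the cerebellar PCB52 groups spread from 6.13 to 7.12.

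PCB52 was not followed by a called change of any member in striatum. In females 37 of 39 members had a level below sham, against 50.4% of all genes, with a median log2 difference of −0.18, against −0.00 for all genes tested, and 0 passed (edgeR, with 0 of 12142 genes, 0%, passing). At an unadjusted p under 0.05 there were 6 members, all lower, or 6 of 39 against a background of 13.4% of genes. DESeq2 called 24 genes, none of them a member. Without sham female 12, whose levels were the highest, the median of the members was −0.08, and without PCB52 female 22 it was −0.19. PCB52 female 14, whose mean over the members was the lowest of striatum (5.86), was in both of those fits. The ribosomal protein list lay on the same side, with 74 of 74 genes below 0 and a median of −0.32.

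The members of lowest p in striatal females were Psmb2, Psmd7, Psma6 and Psma2. Psmb2, a beta subunit, had 48.0 to 73.2 CPM in PCB52 females (median 51.9, n = 6), against 57.3 to 108 CPM in sham females (median 65.5, n = 6). The groups overlapped, since PCB52 female 18 stood above 5 of the 6 sham libraries, and the difference was −0.37 ± 0.14 (edgeR adjusted p = 0.327). Psmd7, a scaffold that pairs with Psmd14, had 83.2 to 116 CPM in PCB52 females, against 104 to 144 CPM in sham females, and differed by −0.27 ± 0.11 (edgeR adjusted p = 0.340). Psma6 and Psma2, both alpha subunits, differed by −0.36 ± 0.15 and −0.30 ± 0.13 (edgeR adjusted p = 0.341 and 0.350). Among the activators the differences were −0.29 ± 0.18 for Psme2, −0.14 ± 0.17 for Psme1, −0.03 ± 0.06 for Psme3 and 0.11 ± 0.18 for Psme4.

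Striatal males lay close to 0. Of 39 members 27 were below 0, against 49.9% of all genes, the median was −0.02, and 0 had an unadjusted p under 0.05, against 0.898% of all genes. Psmd10 had the lowest p (−0.31 ± 0.24), followed by Psme1 (−0.23 ± 0.18), Psme3 (0.08 ± 0.07) and Psmc4 (−0.14 ± 0.13), each with an edgeR adjusted p of 1.00. DESeq2 called 1 gene, no member. For the mean of both sexes the median was −0.10 (−0.05 without the libraries with another tissue's genes) and 1 member, Psmd10, had an unadjusted p under 0.05 (−0.37 ± 0.16, edgeR adjusted p = 0.774), against 5.8% of genes. Psmd10 had 2.49 to 4.78 CPM in PCB52 females and 3.36 to 5.23 CPM in sham females, and 1.83 to 4.17 CPM in PCB52 males and 2.67 to 3.99 CPM in sham males. With 12 to 36 counts a striatal library, counting error weighs on this gene. The female minus male difference in effect had a median of −0.16 and 0 calls, with 1 member at an unadjusted p under 0.05, against 3.88% of genes, Psmb2 at −0.46 ± 0.22 (edgeR adjusted p = 0.914). That median was −0.07 without sham female 12.

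**Figure D5:**
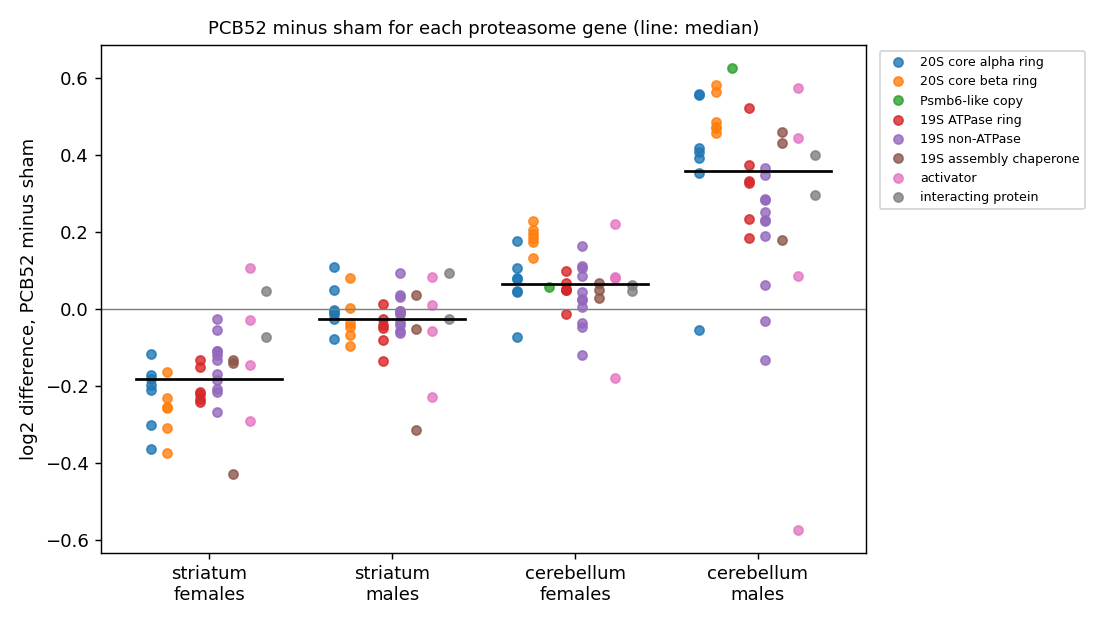
Each point is the log2 difference of PCB52 minus sham for 1 proteasome gene, coloured by role, in females and males of striatum and cerebellum, and the line is the median. The medians are −0.18, −0.02, 0.07 and 0.36 from left to right, and no point passed the test.

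In cerebellum the members lay above sham instead, again with 0 calls. In females the median was 0.07, 34 of 40 members were above 0, against 55% of all genes, and 0 had an unadjusted p under 0.05, against 3.16% of genes. This median was −0.03 without PCB52 female 20. The lowest p belonged to Psmd1 (−0.12 ± 0.07), Psmd3 (0.11 ± 0.09), Psme3 (0.08 ± 0.07) and Psme2 (0.22 ± 0.23), each with an edgeR adjusted p of 1.00. DESeq2 called 10 genes in females and 1 in males, none of them a member.

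In males 36 of 40 members were above 0, against 50.7% of all genes, with a median of 0.36, against 0.01 for all genes. At an unadjusted p under 0.05 there were 5, all higher, or 5 of 40 against a background of 14.3%. The ribosomal protein list stood above 0 in 74 of 74 genes, with a median of 0.75. Without PCB52 male 23 the median of the members was 0.23, and without sham male 1 and its choroid plexus genes it was 0.27. The lowest p belonged to Psme3ip1, Psme2, Psma7 and Psmd9 (edgeR adjusted p = 0.313 for each). Psme3ip1 had 50.1, 72.4, 62.1, 60.1 and 75.5 CPM in PCB52 males, against 47.8, 58.0, 46.9, 57.8 and 47.0 CPM in sham males, and differed by 0.30 ± 0.11. Only PCB52 male 13 fell within the range of the sham males. Psme2 had 30.9, 68.1, 37.4, 49.6 and 75.8 CPM in PCB52 males, against 26.7, 41.4, 35.0, 46.2 and 23.9 CPM in sham males, and differed by 0.58 ± 0.26. In all, 3 of the PCB52 libraries exceeded every sham library, and males 13 and 19 did not.

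Psma7, an alpha subunit, had 184, 385, 243, 242 and 441 CPM in PCB52 males, against 143, 234, 203, 252 and 171 CPM in sham males, and differed by 0.56 ± 0.25. Psmd9 differed by 0.43 ± 0.20. Psme4 was the member farthest below 0. It had 81.7, 34.3, 62.8, 55.9 and 39.0 CPM in PCB52 males, against 119, 59.9, 82.0, 57.2 and 84.5 CPM in sham males, and differed by −0.57 ± 0.31 (edgeR adjusted p = 0.313). The groups overlapped, and the lowest were PCB52 males 15 and 23, which had the highest means over the members.

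For the mean of both sexes in cerebellum the median of the members was 0.22, and 5 of 40 had an unadjusted p under 0.05, against 14.8% of genes. These included Psmd1 (−0.12 ± 0.05), Psme2 (0.40 ± 0.17), Psmd3 (0.15 ± 0.07) and Psme3ip1 (0.17 ± 0.08), each with an edgeR adjusted p of 0.326. DESeq2 called 23 genes, none a member. The female minus male difference in effect had a median of −0.27, 0 calls and 0 members at an unadjusted p under 0.05, against 2.17% of genes, led by Psme3ip1 (−0.25 ± 0.15), Psma6 (−0.51 ± 0.36), Psmd9 (−0.38 ± 0.27) and Psma1 (−0.31 ± 0.26), each with an edgeR adjusted p of 0.774. Its median was −0.12 without PCB52 male 23.

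Sex made no called difference to any member in sham rats, where 4 genes (0.0329%) were called in striatum and 0 (0%) in cerebellum. The cerebellar comparison held 4 libraries with transcripts of both sexes (sham females 8 and 10 and males 9 and 11). Without them 4 genes were called there, and 0 members. With these libraries in the fit, the 0 calls in cerebellum say little about sex. In striatum females minus males had a median of 0.09 over 39 members, with 33 above 0, against 52.2% of all genes, and 0 had an unadjusted p under 0.05, against 2.55% of genes. The lowest p belonged to Psmb2 (0.33 ± 0.16), Psma2 (0.29 ± 0.15), Psma4 (0.19 ± 0.14) and Psma6 (0.21 ± 0.17). Without sham female 12 the median was −0.01. In cerebellum the median was 0.06 over 40 members (−0.03 without sham male 1, 0.13 without the libraries with transcripts of both sexes), with 0 at an unadjusted p under 0.05, against 1.05% of genes. There the lowest p belonged to Psmc3ip (0.22 ± 0.23), Psma4 (0.17 ± 0.19), Psmd2 (0.07 ± 0.08) and Psmd12 (0.12 ± 0.15). The edgeR adjusted p was 1.00 for each of these 8 differences, and DESeq2 called no member in either region.

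The striatal effect of PCB52 minus the cerebellar effect was below 0 for 38 of 40 members, against 50.9% of all genes, with a median of −0.32, against −0.01 for all genes tested. No member passed, and 16 of 40 had an unadjusted p under 0.05, all lower, against a background of 18.3%. The lowest p belonged to Psmd10 (−0.65 ± 0.24), Psme2 (−0.59 ± 0.23), Psmb1 (−0.55 ± 0.22) and Psma6 (−0.54 ± 0.22), each with an edgeR adjusted p of 0.268. Of the 6 beta subunits 5 were among the 16. That count was not stable. With the animal as a block 8 of 40 members had an unadjusted p under 0.05 (14.8% of all genes), with limma voom 4 (13%), without the libraries with transcripts of both sexes 4 (9.42%) and without those with another tissue's genes 2 (5.31%), and 0 passed in each. The ribosomal protein list had 74 of 74 genes below 0 in the same comparison, with a median of −0.69 and 68 genes at an unadjusted p under 0.05. Without the 3 libraries with genes of another tissue the median of the members was −0.21.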

How the data were processed

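Bulk RNA from tissue punches was sequenced after mRNA enrichment by poly(A) capture or rRNA removal, and the labels do not say which. Raw counts of reads per gene were deposited by the authors, one table per region. Reads were checked with FastQC and aligned with HISAT2 to rn6, per the submitters' processing notes, while for the counting program, the annotation and any use of strand the labels give nothing. Of 47 labelled samples 44 had counts, and the other 3 were not analysed here. Entrez identifiers were matched to rat symbols (99.4%) with a RefSeq table of GRCr8, used for names and promoter sequences only.

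Counts were tested with edgeR 4.0.16 in R 4.3.3 (filterByExpr, TMM factors, robust quasi-likelihood F-test, 1 coefficient per group), over 12142 genes in striatum, 11690 in cerebellum and 12446 over both. Benjamini-Hochberg adjustment ran over all genes tested, with a threshold of 0.05. Log2 CPM used a prior count of 2. The script was tested on simulated data. DESeq2 1.42.0 and limma 3.58.1 were alternatives. The same animal number in both regions marks the same animal, and 21 animals gave both. The correlation of their deviations between regions had a median of 0.0915 (range −0.378 to 0.495). The PCB52 minus sham and regional contrasts share libraries, so their values are not independent.

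The members and lists were chosen with earlier results of these data known. Named genes were, per comparison, the called members (up to 12 per direction by p), otherwise the 4 of lowest p, together with the catalytic subunits, the activators, the members failing the filter, and up to 4 called associated genes per direction.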

Additional observations from a re-analysis of the deposited data

Results flagged for a closer look

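In each of the 8 groups the mean of the members and the levels of Psmb5, Psmb7 and Psme1 to Psme4 were searched for a single library apart from its group (Dixon's ratio, 95% critical value). Of the 56 searches 5 found one, and chance gives about 1 in 20. The searches are not independent, since the mean includes the single genes and some of the 5 share a library.

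Striatum sham female 12 stood above the other sham females for the mean log2 CPM of the members (6.54, next 6.14), for Psmb5 (7.61) and for Psmb7 (8.41, next 7.70). The same library held olfactory bulb genes at a mean log2 CPM of 4.56 and the highest striatal mean of the ribosomal protein list, and the part of these in its levels was not tested. Without it the median of the members for PCB52 minus sham in striatal females was −0.08, against −0.18 with it. For Psme3, striatum sham female 6 (6.68, next 6.57) and cerebellum sham male 3 (6.62, next 6.55) stood above groups of otherwise very close values.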

How the results depend on the processing

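No member was called in any PCB52 or sex comparison under any alternative. DESeq2 called 24 genes in striatal females, 1 in striatal males, 10 in cerebellar females, 1 in cerebellar males, 23 for their mean, 4 for the cerebellar difference between the sexes' effects and 3 for the difference between the regions' effects, where edgeR called 0, and the cause was not tested. Between the sexes of sham rats, 2 genes were called in striatum with only those libraries, against 4, and 4 in cerebellum without the libraries holding transcripts of both sexes, against 0 (0 to 2 leaving out 1 library).

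For striatum minus cerebellum the members called numbered 21 without the libraries holding transcripts of both sexes (63.6% of all genes called), 31 without those with another tissue's genes (70.2%), 32 with limma voom and quality weights (77.6%), 23 with DESeq2 (63.3%), 22 with RLE size factors (69.2%) and 26 without the filter on low counts (61.7%), against 26 (69.8%). Leaving out 1 library gave 21 (without cerebellum sham female 6, 68.6% of all genes) to 29 (without striatum sham female 12, 70.4%), with medians of −0.41 to −0.29. With the animal as a replicate block 26 were called (67.8% of all genes), with a median of −0.33, and no member was called in the difference between the regions' effects. No paired analysis was possible within a region because each animal gave 1 library there.

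With limma voom the median of the members for PCB52 minus sham was 0.20 in cerebellar males, against 0.36, 0.10 for both sexes of cerebellum, against 0.22, −0.02 in cerebellar females, against 0.07, 0.02 in striatal males, against −0.02, and −0.06 for both sexes of striatum, against −0.10. It was −0.16 for the striatal minus cerebellar effect, against −0.32, and 0.04 in striatum and 0.02 in cerebellum for female minus male sham, against 0.09 and 0.06. The cause was not tested. A planned comparison of levels per kilobase was not run, since no transcript lengths were used here. Low counts limit Psmd10 and Psmb6l1.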
